A study of Homo sapiens with 18 samples.

Results

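The GFP-P2A-ChFP line is the negative control of a study of ribosome stalling in HEK293T, an established human embryonic kidney line. Its members are 6 of the 18 libraries of the series, chosen by the line and the induction state in their labels, and they are 3 uninduced and 3 induced libraries. The construct encodes green fluorescent protein and, after the ribosome-skipping peptide P2A, the fluorescent protein ChFP, with no stalling sequence. It sits in stable cells under a doxycycline-responsive (Tet-on) promoter. Induced cells received 500 ng/μl doxycycline for 48 h as the labels give the dose, whose unit could not be checked, and uninduced cells carried the same construct without doxycycline. The comparison therefore joins the drug with the reporter, and the parts of doxycycline and of GFP and ChFP in it cannot be told apart. The labels do not say whether the line is a clone, nor that the replicates came from separate cultures. The p-values thus reflect the spread among these libraries only, which may be technical. The 2 other lines of the series, used here only for comparison, carry a poly-adenylate stretch (GFP-P2A-poly-adenylate) or a proline-arginine repeat (GFP-P2A-102xPR) and were treated in the same way.

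Doxycycline is a tetracycline antibiotic that switches on Tet-on promoters and can also bind mitochondrial ribosomes. The transcription factor p53 answers DNA damage and other stress by raising genes for cell cycle arrest, apoptosis and repair, among them CDKN1A, whose protein p21 blocks cyclin-dependent kinases. When those kinases are blocked, the DREAM repressor complex lowers genes of G2 phase and mitosis through a promoter element called CHR, often found near CCAAT boxes that bind NF-Y. HEK293T cells carry the SV40 large T antigen, which binds p53 and the retinoblastoma family, so both arms of this pathway work under constraint in them.

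The 6 libraries held 17282878 to 25277535 counts on genes, and 15332 of 28394 genes were tested in a fit over all 18 libraries, whose shared biological coefficient of variation was 5.75%. The second principal component, with 7.56% of the variance, parted the 18 libraries into sets of 8 and 10 that no label names. All 3 uninduced ChFP libraries and induced replicate 3 were in the set of 8, and induced replicates 1 and 2 were in the set of 10. The library set thus ran largely with the induction state in this line. Its part in the comparison cannot be fully told apart from that of drug and reporter. Mitochondrially encoded genes took 6.68%, 6.97% and 6.96% of counts in the uninduced libraries and 5.60%, 5.29% and 7.67% in the induced ones, so that induced replicates 1 and 2 were low and replicate 3 was high. The means were 6.87% ± 0.17 and 6.19% ± 1.3 (SD, n = 3), and an exact two-sided permutation test of the difference gave p = 0.4 (0.1 is the smallest that 3 against 3 libraries allow). All 13 HEK293 line markers were detected and passed the filter, and of 50 markers of 6 other cell types 18 passed, with none called by edgeR or DESeq2 (3 had an unadjusted p under 0.05). Reads on the reporter itself were not analysed here.

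Between uninduced and induced ChFP libraries 159 genes rose (1.04% of those tested) and 154 fell (1%), together 2.04%. These calls are from edgeR's quasi-likelihood test with a Benjamini-Hochberg adjusted p under 0.05. An unadjusted p under 0.05 was found for 3059 of the 15332 genes tested. Counts of list members at that level are read against this share. The rises were larger than the falls and lay at lower levels. Of the 159, 73 exceeded 1.5-fold and 26 exceeded 2-fold, beside 706 and 209 of all 15332 genes tested. Their median level was 8.85 CPM (counts scaled to library size), against 25.3 CPM over all genes tested. Under 5 CPM lay 51 of the 159, beside 4127 of all 15332. The falls were small and lay among well expressed genes: their median was -0.24 log2, and 122 of the 154 had more than 50 CPM, beside 5066 of all 15332. Only 4 exceeded 1.5-fold (CGA, HOXA-AS3, MIR1244-2 and CYP1B1). CGA, the alpha subunit of glycoprotein hormones and the 1 fall over 2-fold (-1.63 ± 0.32 log2, ± standard error), was named after its value was seen and lies under 1 CPM. The median fold change of the rises was 0.57 log2, against 0.01 over all genes tested. The median standard error was 0.12 log2 for the rises and 0.06 for the falls. All 313 genes kept their direction in each alternative that measured them, but the number called moved with single libraries. The kept direction says little, since induced and uninduced libraries did not overlap in 158 of the 159 rises and all 154 falls. Without induced replicate 1, 2 or 3 in turn, 26, 39 and 724 genes were called up and 29, 19 and 619 down, and without uninduced replicate 1, 2 or 3, 34, 14 and 69 were called up and 10, 14 and 56 down. In a fit without induced replicates 1 and 2 together, the ChFP libraries were all of the set of 8. Libraries of the other lines from both sets stayed in it, and induced replicate 3 was the only induced ChFP library. Its fold changes for the p53 and G2/M lists are given below. A fit that took the library set as a covariate called 70 up and 86 down, and 108 of the 313 calls stayed in it. Scaling by library totals gave 225 up and 53 down.

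**Figure D1:**
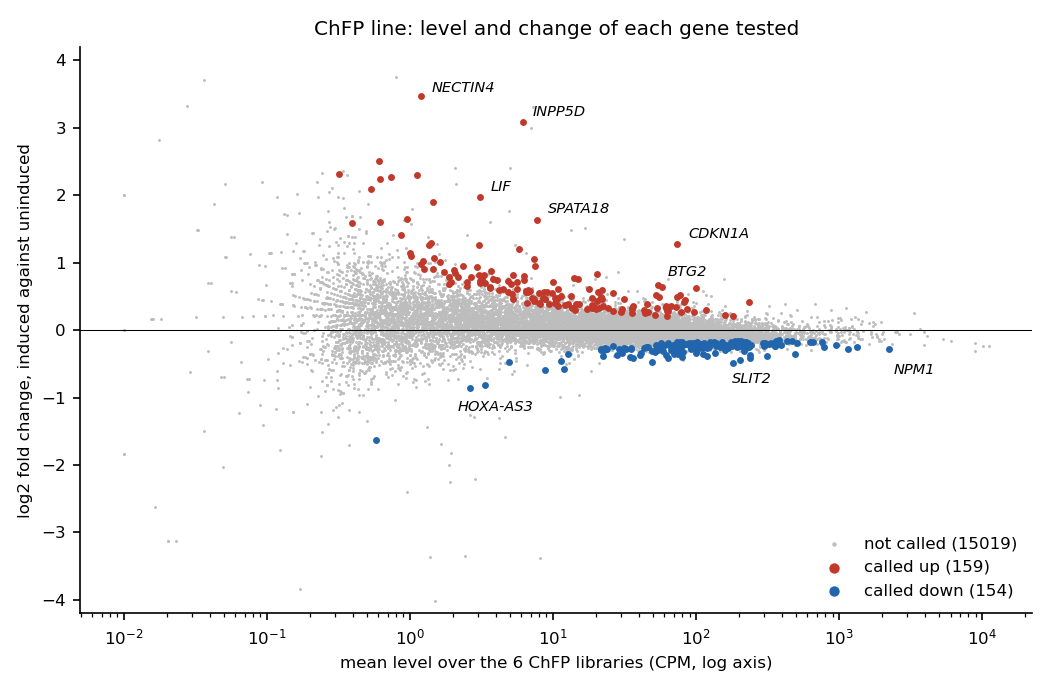
Each point is a gene tested, with its mean level over the 6 ChFP libraries (CPM, log axis) against its fitted log2 fold change, induced against uninduced. The 159 genes called up (red) reach over 3 log2 units at low levels, and the 154 called down (blue) form a narrow band just under 0 at high levels. There are 3 genes beyond the plotted range.

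Leaving out libraries was examined gene by gene for 108 of the called genes, which do not include CGA, ZNF581, CHPF2, ZCCHC12 or ESPNL, and 18 stayed called without each of the 6 libraries in turn. These were LIF, NECTIN4, CEL, SPATA18, BTG2, TRIAP1, TNFRSF10D, PIDD1, DRAM1 and H1-2 among the rises, and AURKA, CCNB1, SQLE, SCD, SLIT2, FOXC1, HOXA5 and HOXD13 among the falls. The calls of the others among the 108 ended without at least 1 library, most often induced replicate 1 or 2 or uninduced replicate 1 or 2.

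The p53 target list moved one way. Of its 32 genes, all tested, 13 rose and 0 fell, against a background of 1.04% of genes called up. All 32 had a positive fold change with a median of 0.52 log2, and in 28 of them the 3 induced libraries lay above the 3 uninduced ones, as for 11% of all genes tested.

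The arrest genes held 7 of the 13 rises among 9 members, with a median of 0.56 log2. CDKN1A (Entrez 1026, chromosome 6, 36676463 to 36687332, GRCh38.p14) had 53.9, 40.6 and 34.6 CPM in the uninduced libraries and 138, 95.7 and 81.9 CPM in the induced ones. Every induced library exceeded every uninduced one, and replicate 1 was the highest on both sides. CDKN1A rose by 1.28 ± 0.28 log2 (± standard error of the fit, as for all fold changes here), from a mean of 43.0 ± 9.90 to 105 ± 29.1 CPM (SD, n = 3), with an adjusted p of 0.0408. This call ended without any 1 of the libraries other than induced replicate 3 (fold changes of 0.92 to 1.48 over all alternatives). BTG2, an antiproliferative cofactor of mRNA deadenylation (Entrez 7832, chromosome 1, 203305519 to 203309602), had 43.4, 42.7 and 37.9 CPM uninduced and 75.1, 63.1 and 60.4 CPM induced. Its groups were well apart and it rose by 0.68 ± 0.10 (adjusted p = 0.0032). The polo-like kinase gene PLK3 (0.93 ± 0.19), the RNA-binding protein gene ZMAT3 (0.64 ± 0.13), the growth arrest gene GADD45A (0.56 ± 0.12) and the sestrins SESN1 (0.49 ± 0.10) and SESN2 (0.49 ± 0.09), which restrain mTORC1, rose too. PLK2 and cyclin G (CCNG1) had fold changes of 0.42 and 0.25 and did not pass.

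Of 10 apoptosis genes, 3 rose and the median was 0.55 log2. TRIAP1, which lowers apoptosis, went from 65.1, 62.1 and 62.7 CPM to 102, 90.8 and 78.5 CPM (0.52 ± 0.08, adjusted p = 0.00214). The death receptors FAS (0.72 ± 0.16) and TNFRSF10B (0.63 ± 0.15) rose, TNFRSF10B from 90.9, 77.2 and 67.6 to 145, 115 and 105 CPM. BAX, the pore-forming effector of mitochondrial apoptosis, was at 135, 107 and 106 CPM uninduced and 237, 193 and 157 CPM induced. Its groups did not overlap, but its fold change of 0.76 ± 0.19 missed the threshold (adjusted p = 0.0598). BBC3 (0.45 log2), AEN (0.58) and TP53INP1 (0.65) also missed it, and PMAIP1, a BH3-only gene, was flat at 0.03 log2.

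Of 13 genes for feedback, repair and other functions, 3 rose and the median was 0.50 log2. SPATA18, which takes part in mitochondrial quality control (Entrez 132671, chromosome 4, 52051304 to 52097299), had 4.61, 3.70 and 2.88 CPM uninduced and 13.6, 10.8 and 11.1 CPM induced. Its induced libraries were all more than 2-fold above the uninduced ones, and it rose by 1.64 ± 0.19 (adjusted p = 0.000316). RRM2B, a p53-dependent ribonucleotide reductase subunit, rose by 0.52 ± 0.10. MDM2, the ubiquitin ligase that degrades p53, had 172, 166 and 167 CPM uninduced and 204, 181 and 200 CPM induced, a small rise of 0.21 ± 0.05 with an adjusted p of 0.0425. The receptor gene EDA2R (1.52 ± 0.36, adjusted p = 0.0524) and the Akt inhibitor gene PHLDA3 (1.35 ± 0.37, 0.0794) had large fold changes and a wide spread between libraries. The damage sensor gene DDB2 went from 24.3, 17.4 and 19 to 41.2, 34.7 and 34.6 CPM, with an adjusted p of 0.0508.

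Promoter sequences from RefSeq (GRCh38.p14, 250 bases before to 50 after a start site) were at hand for 27 of the 32 p53 targets. A full p53 site, a pair of p53 half-sites at most 13 bases apart, was searched for on both strands, a motif chosen after the values were seen. It occurred in 1 of 42 windows of the list (2.38%) and in 10 of all 35116 windows (0.0285%), so the share rests on a single match. Among the called targets 0 of 18 windows held it. The 1 match lay in DDB2, which was not called, 5 bases after the start site on the plus strand of chr11:47214979-47214999, and is shown with its half-sites in capitals.
DDB2: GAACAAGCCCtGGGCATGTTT
Sites of p53 also lie outside such short windows, and a match is only a match of letters.

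Other genes with a known link to p53, named after their values were seen, were called up as well. They were the decoy death receptor gene TNFRSF10D (0.60 ± 0.09), the PIDDosome gene PIDD1 (0.84 ± 0.13), the autophagy modulator gene DRAM1 (0.82 ± 0.14), the noncoding RNA TP53TG1 (0.74 ± 0.13) and the patched-domain gene PTCHD4 (1.66 ± 0.28). TNFRSF10D had 18.6, 17.6 and 16.5 CPM uninduced and 30.9, 24.3 and 25.0 CPM induced. PIDD1 had 13.5, 15.4 and 14.8 CPM uninduced and 29.7, 26.7 and 21.7 CPM induced.

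The libraries numbered 1 stood above the other replicates for these genes in every group of the series. Replicate 1 was the highest for 23 of the 32 targets in uninduced and 27 in induced ChFP cells, and for 23 to 27 in each of the other 4 groups. The main fit has no term for replicate number, so this difference stays in the spread of these genes. In the ChFP line the median log2 ratio to the uninduced mean was 0.09, -0.02 and -0.11 in uninduced replicates 1 to 3 and 0.69, 0.48 and 0.43 in the induced ones. The lowest induced library thus lay above the highest uninduced one in the median. Without induced replicate 1, 2 or 3 in turn 4, 8 and 24 targets were called up, and without uninduced replicate 1, 2 or 3 there were 6, 4 and 7 calls. In the fit without induced replicates 1 and 2 together, 30 of 32 fold changes were positive with a median of 0.43, against -0.01 over all genes. These values rest on induced replicate 3 alone on the induced side. Their direction says little, since induced and uninduced libraries did not overlap in 28 of the 32. With the library set as a covariate 7 targets were called.

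**Figure D2:**
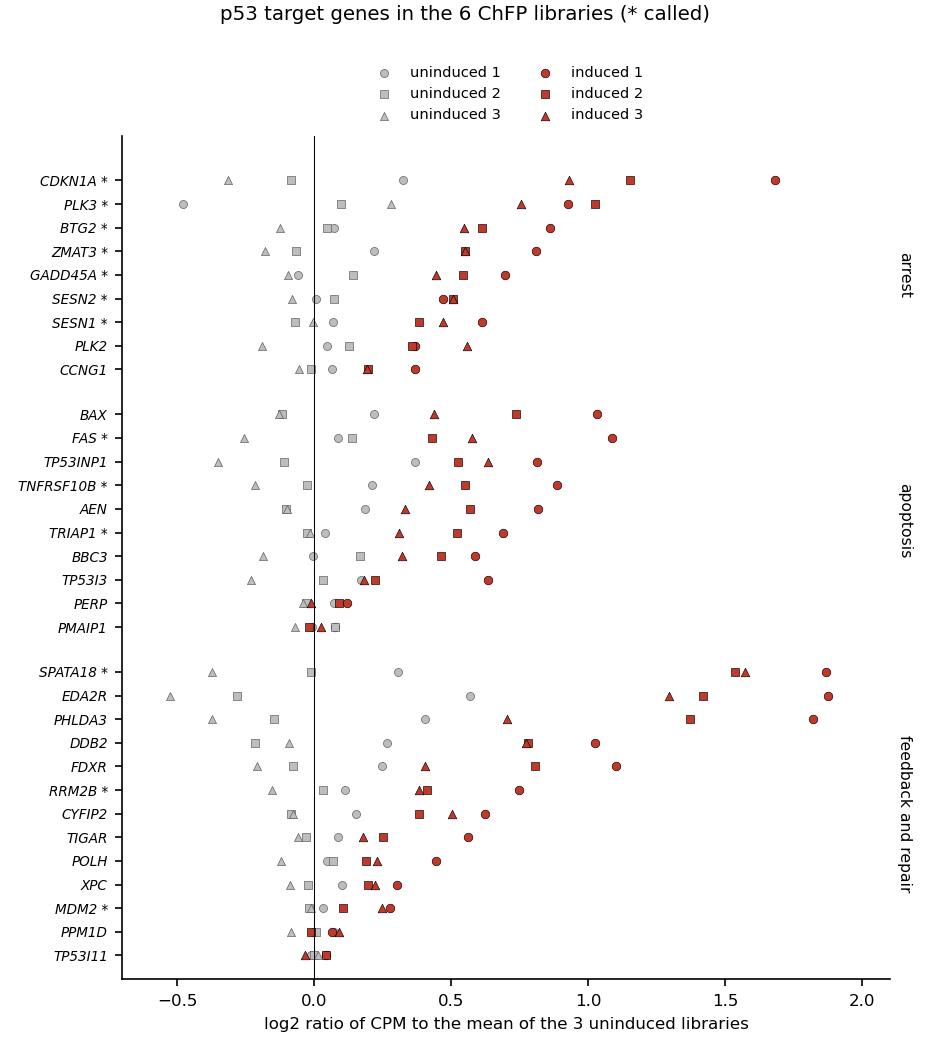
Each row is a p53 target, grouped by role, and each marker is 1 library, placed by the log2 ratio of its CPM to the mean of the 3 uninduced libraries (grey uninduced, red induced, with a marker shape for each replicate number, * for genes called). The induced libraries lie to the right of the uninduced ones in 28 of 32 rows, and induced replicate 1 is mostly the farthest.

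Genes of G2 phase and mitosis fell by small amounts. Of 63 list members, all tested, 13 fell and 0 rose, against a background of 1% of genes called down. The median was -0.17 log2, 62 of 63 fold changes were negative, and in 46 members the induced libraries lay below the uninduced ones, as for 13.7% of all genes tested. CDK1, the kinase that drives entry into mitosis, was the 1 member with a positive fold change (0.05 ± 0.08, adjusted p = 0.764). The list's summed level was 8200 to 8380 CPM in uninduced and 7190 to 7560 CPM in induced libraries. In bulk RNA, fewer cells in G2 and mitosis and less of these mRNAs per cell cannot be told apart.

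Kinases and cyclins held 5 of the 13 falls. CCNB1, which encodes cyclin B1 (Entrez 891, chromosome 5, 69167150 to 69178245), had 257, 254 and 255 CPM uninduced and 214, 213 and 217 CPM induced. The replicates were tight on both sides, and CCNB1 fell by 0.25 ± 0.04 log2 (adjusted p = 0.00214). The Aurora kinase gene AURKA went from 134, 131 and 127 to 106, 107 and 114 CPM (-0.26 ± 0.05, adjusted p = 0.00478). PLK1, the polo-like kinase of mitotic entry (Entrez 5347, chromosome 16, 23678889 to 23690367), went from 233, 246 and 248 to 187, 204 and 215 CPM (-0.26 ± 0.06). The spindle checkpoint kinase genes BUB1 (-0.24 ± 0.05) and BUB1B (-0.35 ± 0.07) fell too, with induced replicate 3 the least changed for BUB1B, at 79.9, 87.2 and 96.6 CPM against 108 to 115 CPM uninduced.

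Of the spindle genes 4 fell among 18. They were the cytokinesis motor KIF20A (-0.35 ± 0.07), the chromokinesin KIF4A (-0.27 ± 0.06), its partner PRC1, which bundles midzone microtubules (-0.20 ± 0.05), and the spindle protein CKAP2 (-0.23 ± 0.06). KIF20A went from 128, 124 and 122 to 94.6, 97.2 and 101 CPM with no overlap. Among 9 anaphase and cytokinesis genes UBE2C (-0.21 ± 0.04), a ubiquitin-conjugating enzyme of the anaphase-promoting complex, and its activator CDC20 (-0.17 ± 0.04) fell. FOXM1, a transcription factor that activates this programme, went from 238, 236 and 241 to 190, 188 and 202 CPM (-0.30 ± 0.07), and the condensin subunit SMC2 fell by 0.22 ± 0.05. None of the 11 kinetochore genes was called by edgeR, though 6 had an unadjusted p under 0.05, all negative, and their median was -0.16. FOXM1, CDC20, SMC2 and CKAP2 are named here because they complete the 13.

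The promoters of this list were examined for CHR (TTTGAA or TTCGAA) and the CCAAT box (CCAAT), each on both strands, in windows of 300 bases from RefSeq that matched 53 of the 63 genes. A CHR lay in 43 of 69 windows (62.3%), against 16.4% of all windows in the table. A CCAAT box lay in 66.7% against 34.6%, and both motifs in 46.4% against 6.38%. Among the called members 7 of 11 windows held a CHR (63.6%), close to the whole list. The 100 bases before the start site are shown for 4 called members with a CHR, on the strand of the gene, chosen for the smallest adjusted p among those whose CHR lies wholly before the start; CHR and CCAAT motifs are in capitals, and ATTGG is CCAAT on the other strand.
KIF4A: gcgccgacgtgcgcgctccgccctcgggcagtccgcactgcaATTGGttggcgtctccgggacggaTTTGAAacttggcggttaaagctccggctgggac
BUB1B: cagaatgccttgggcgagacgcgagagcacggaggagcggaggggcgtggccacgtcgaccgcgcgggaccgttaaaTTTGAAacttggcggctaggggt
PLK1: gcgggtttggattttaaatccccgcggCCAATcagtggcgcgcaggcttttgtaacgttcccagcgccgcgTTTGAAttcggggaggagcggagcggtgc
PRC1: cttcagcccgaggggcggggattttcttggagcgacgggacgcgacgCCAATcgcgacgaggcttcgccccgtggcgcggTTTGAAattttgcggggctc
These stretches are chrX:70290004-70290103 (plus strand), chr15:40160969-40161068 (plus), chr16:23678789-23678888 (plus) and chr15:90994536-90994635 (minus). The first base of the CHR was 34, 23, 29 and 20 bases before the start site in KIF4A, BUB1B, PLK1 and PRC1, a range that the choice of these 4 sets. In the other called members with a CHR its first base lay at 1 (BUB1, after the start), -3 (SMC2, across the start), and -178 and -65 (CDC20). KIF4A, PLK1 and PRC1 had 1 CCAAT box upstream of it in the stretch shown, and BUB1B had 0. These matches describe letters in a window and say nothing of binding in these cells.

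The number of calls moved with single libraries. Without induced replicate 1, 2 or 3 in turn 3, 3 and 25 members were called down, and without uninduced replicate 1, 2 or 3 there were 3, 2 and 6 calls. In the fit without induced replicates 1 and 2 together the median was -0.12, against -0.01 over all genes, with 62 of 63 negative. These values rest on induced replicate 3 alone on the induced side. Their direction says little, since induced and uninduced libraries did not overlap in 46 of the 63. With the library set as a covariate 8 members were called.

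**Figure D3:**
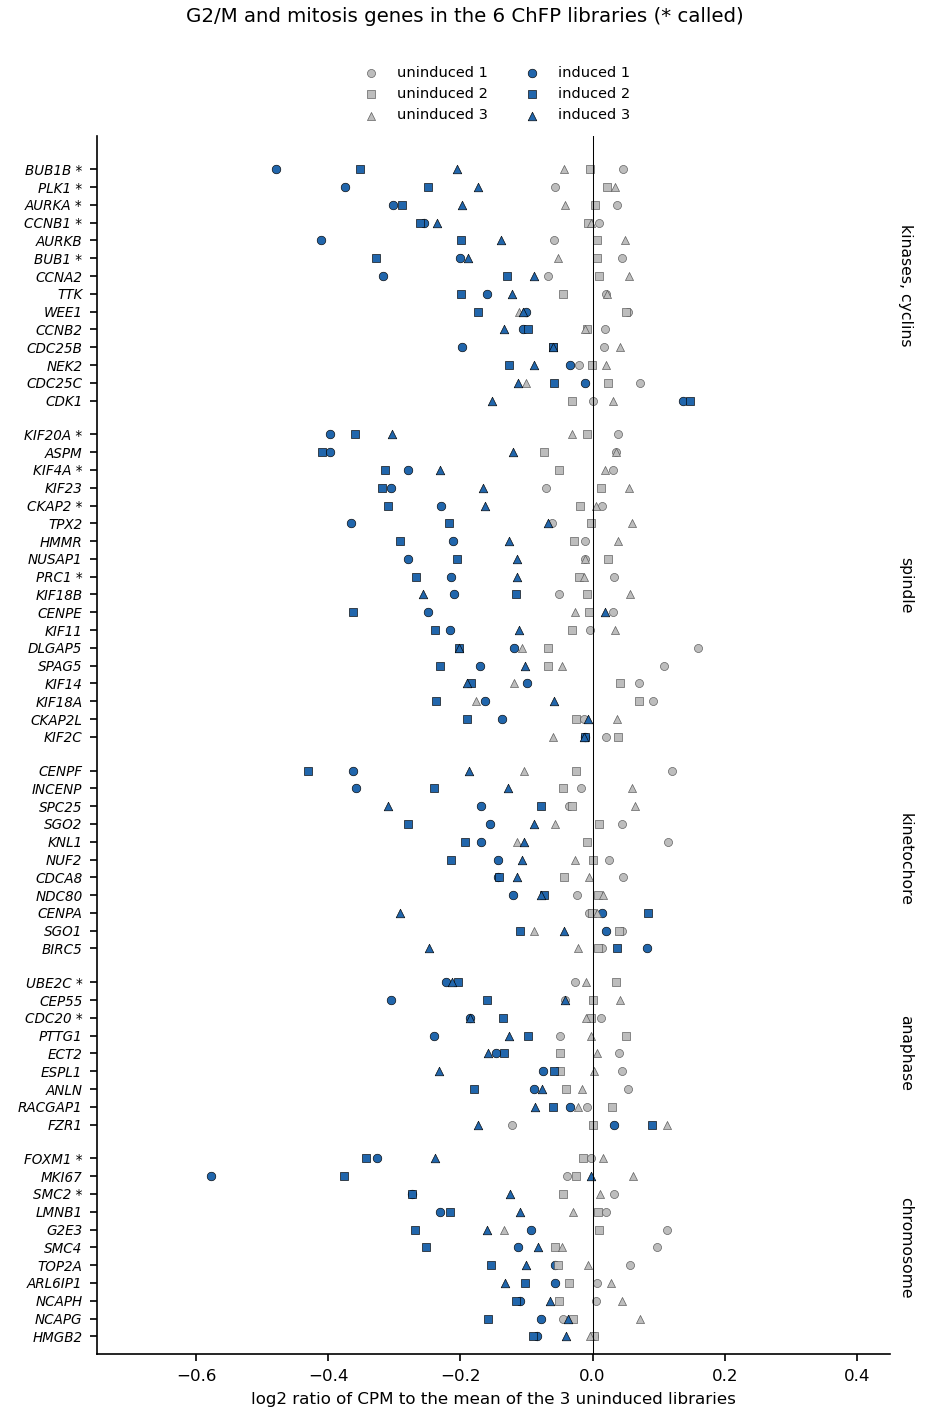
Each row is a gene of G2 phase or mitosis, grouped by role, and each marker is 1 library, placed by the log2 ratio of its CPM to the mean of the 3 uninduced libraries (grey uninduced, blue induced, * for genes called). The induced libraries lie to the left of the uninduced ones in 46 of 63 rows, and induced replicate 3 is nearest to 0 of the induced libraries in 38 of 63.

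Of 70 genes of G1/S and DNA replication 1 fell (1.43%, against 1% of all genes called down) and the median was -0.03 log2. That gene was CCND1, cyclin D1 of early G1, which went from 82.4, 83.0 and 80.2 to 70.4, 69.5 and 67.8 CPM (-0.24 ± 0.05, adjusted p = 0.00885). Of 27 replication-dependent histone genes tested 3 rose (11.1%, against 1.04% of all genes called up) and 0 fell, with a median of 0.33. The linker histone gene H1-2 went from 14.6, 14.5 and 13.5 to 23.0, 22.9 and 19.2 CPM (0.61 ± 0.10), and H2AC6 (0.86 ± 0.21) and H2BC17 (1.14 ± 0.28) rose from 0.452 to 1.41 CPM uninduced. Most mRNAs of such histones end without poly(A), which the library kit selects for, so these values cover the tailed forms only. For this list the median log2 ratio to the uninduced mean was 0.62, 0.17 and 0.10 in induced replicates 1 to 3, so that replicate 1 stood apart.

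The largest rises were in genes of low level. LIF, the cytokine leukemia inhibitory factor (Entrez 3976, chromosome 22, 30240453 to 30246759), had 1.5, 1.27 and 0.941 CPM uninduced and 5.80, 4.97 and 4.13 CPM induced. The groups were far apart, LIF rose by 1.97 ± 0.22 log2 (adjusted p = 4.04e-05), and it was called in every alternative tried, at 1.71 to 2.13. INPP5D, the inositol phosphatase SHIP1 of blood cells (Entrez 3635, chromosome 2, 233060342 to 233207903), had 1.90, 1.07 and 0.764 CPM uninduced and 16.9, 8.01 and 8.10 CPM induced. It had the largest fold change that the naming rule allowed, 3.09 ± 0.56 (adjusted p = 0.0195), but its call ended without induced replicate 1 or any 1 uninduced library. NECTIN4, an adhesion molecule of epithelia named for its small adjusted p (Entrez 81607, chromosome 1, 161070998 to 161089558), had 7, 5 and 1 counts uninduced and 45, 40 and 41 counts induced. NECTIN4 rose by 3.47 ± 0.39 log2 (adjusted p = 4.04e-05), and like LIF it was called in every alternative. CEL, a lipase gene chosen on the same ground, rose by 1.90 ± 0.27 from 0.592 ± 0.229 to 2.30 ± 0.478 CPM.

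The remaining large rises were spread over unrelated functions. The tetraspanin gene TSPAN11 (1.21 ± 0.23), the sodium channel subunit gene SCN4B (1.06 ± 0.21), the calcium channel gene ORAI3 (0.96 ± 0.22), the lysyl oxidase gene LOXL4 (0.96 ± 0.24), ASPHD1 (0.87 ± 0.23) and the AP-1 gene FOSL1 (0.89 ± 0.23) rose. TYMSOS, a noncoding RNA antisense to the thymidylate synthase gene, rose by 1.26 ± 0.23, and without strand information its reads and those of its partner cannot be told apart. SCN4B went from 5.74, 4.77 and 3.70 to 12.1, 9.39 and 8.47 CPM with no overlap. The interferon list had 1 call of 28 (3.57%, against 1.04% of all genes called up), the RNA sensor gene TLR3 at 0.164 to 1.06 CPM (1.61 ± 0.37).

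FOXC1, a forkhead transcription factor, went from 234, 201 and 198 to 152, 140 and 159 CPM (-0.49 ± 0.07, adjusted p = 0.00247). SLIT2, a secreted axon guidance protein (Entrez 9353, chromosome 4, 20251905 to 20620561), went from 255, 223 and 227 to 176, 169 and 174 CPM (-0.44 ± 0.06, adjusted p = 0.000335). In both genes all induced libraries lay well under all uninduced ones. The Notch target HES1 (-0.42 ± 0.08), the CBP-binding cofactor CITED2 (-0.47 ± 0.08) and the AP-1 gene JUN (-0.42 ± 0.10) fell too, as did the oxidase gene CYP1B1 (-0.59 ± 0.13) and the isomerase gene IDI2 (-0.47 ± 0.13). MIR1244-2 (-0.82 ± 0.21) is 1 of several near-identical gene copies, and its counts are uncertain.

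HOX genes, the homeobox factors that pattern the body axis, were looked at together after 3 of them appeared among the largest falls. Of 37 HOX genes tested 7 fell and 0 rose, against the background of 1% called down, with a median of -0.20 log2 and 31 negative values. HOXA5 went from 75.1, 72.5 and 68.1 to 53.8, 56.0 and 53.3 CPM (-0.41 ± 0.07), and HOXD13 fell by 0.26 ± 0.05. HOXA4 (-0.57 ± 0.11), HOXA6 (-0.46 ± 0.10), HOXB9 (-0.30 ± 0.07), HOXD10 (-0.32 ± 0.06) and HOXD11 (-0.29 ± 0.07) completed the 7, and the antisense RNA HOXA-AS3 fell by 0.86 ± 0.18. Overlap of sense and antisense genes in the HOX clusters makes single values uncertain. Since the family was picked for its falls, its count is a description only.

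Genes of cholesterol synthesis and uptake, which the factor SREBP2 drives, fell in part. Of 28 tested 7 fell (25%, against 1% of all genes called down) and 0 rose. The median of -0.07 log2 was close to 0, with 16 fold changes negative and 12 positive. SQLE, the squalene epoxidase, went from 354, 349 and 353 to 255, 265 and 293 CPM (-0.38 ± 0.05, adjusted p = 0.000316). INSIG1, the sterol-sensing brake on this pathway, went from 255, 283 and 261 to 208, 212 and 202 CPM (-0.36 ± 0.08). The synthase genes HMGCS1 (-0.25 ± 0.06) and FDFT1 (-0.18 ± 0.04) and the enzyme genes NSDHL (-0.19 ± 0.05) and SC5D (-0.17 ± 0.04) fell by less. SCD, the desaturase of fatty acid synthesis, fell by 0.27 ± 0.04 from 1290, 1260 and 1220 to 1020, 1040 and 1060 CPM. Without induced replicate 1, induced replicate 2 or any 1 uninduced library 1 of the 28 was called down, and 8 without induced replicate 3. With library totals as scaling 1 was called, and with only the 6 ChFP libraries in the fit 4.

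In growth-related lists the few calls were falls, read against the 1% of all genes called down. The shares called down were 7.35% of ribosome biogenesis genes and 15.8% of cytosolic tRNA synthetases. They were 5.66% of nuclear pore and transport genes and 7.5% of SR protein and hnRNP genes. Of 68 ribosome biogenesis genes 5 fell (median -0.12), among them the small subunit factors UTP14A (-0.32 ± 0.08) and HEATR1 (-0.24 ± 0.05) and the nucleolar chaperone NPM1 (-0.27 ± 0.07), whose many pseudogene copies make its count uncertain. Of 19 cytosolic tRNA synthetases 3 fell (IARS1, LARS1 and TARS1, median of the list -0.12). Of 53 nuclear pore and transport genes 3 fell (KPNA2, RCC1 and NUP62, median -0.11), and of 40 SR protein and hnRNP genes 3 fell (SRSF1, SRSF2 and HNRNPC, median -0.08). Scaling by library totals put the median of all genes at 0.05 log2 in place of 0.01, a shift of the order of these small medians. Of 78 cytosolic ribosomal protein genes and 45 translation factor genes 0 were called in either direction by edgeR, with medians of 0.04 and -0.09. At an unadjusted p under 0.05 there were 9 up and 6 down among the former and 1 up and 15 down among the latter, and DESeq2 called 0 and 2. Over all genes, 3059 of the 15332 tested had an unadjusted p under 0.05 in either direction, and DESeq2 called 590.

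Mitochondrial lists, of interest because the drug can act on mitochondrial translation, had few calls against the 1.04% up and 1% down of all genes. Their counts at an unadjusted p under 0.05 stand beside 3059 of all 15332 genes tested, in either direction. DESeq2's counts stand beside the 590 genes it called in either direction. All 13 mitochondrially encoded mRNAs were tested, and 0 were called by edgeR or DESeq2 or had an unadjusted p under 0.05. Their median was -0.18 log2, and 12 of 13 were negative. The complex IV mRNA COX1 had 11500, 12500 and 12000 CPM uninduced and 9290, 8990 and 12300 CPM induced, so induced replicates 1 and 2 were low and replicate 3 was level with the uninduced libraries, as for the share of all mitochondrial counts. Under the fit with the library set as covariate edgeR called 4 of the 13 up, and 5 when replicate number was added as a block. Of 74 nuclear respiratory chain genes edgeR called 0 and DESeq2 1 up (median 0.06, with 13 up and 3 down at an unadjusted p under 0.05). Of 79 mitochondrial ribosomal protein genes 1 fell (MRPS5, -0.19 ± 0.04), which is 1.27% against the 1% called down over all genes. In 22 of the 79 the induced libraries lay below the uninduced ones, as for 13.7% of all genes tested. At an unadjusted p under 0.05, 13 were lower and 1 higher, and DESeq2 called 2 down.

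Stress lists are read against the same 1.04% of genes called up and 1% called down. At an unadjusted p under 0.05 they are read against 3059 of 15332 genes in either direction. The shares called are edgeR's, and DESeq2's counts are read against the 590 genes it called in either direction. Of 42 ATF4 targets, the outputs of the integrated stress response, 3 rose (7.14%) and 1 fell (2.38%), with a median of 0.02. GDF15, a stress-secreted hormone that p53 also raises, went from 0.647, 0.247 and 0.176 to 2.85, 1.33 and 1.43 CPM (2.31 ± 0.51). SESN2, which the p53 list also holds, and the activin subunit gene INHBE (1.00 ± 0.24) rose, and the proline synthesis gene ALDH18A1 fell by 0.16 ± 0.04. In the ribosome-associated quality control list, the subject of the series, GTPBP2, a GTPase linked to stalled ribosomes, was the 1 call of 38, or 2.63% (0.20 ± 0.05, from 54.5, 60.2 and 60.3 to 69.9, 65.3 and 66.1 CPM). The median of that list was -0.05. The proteasome list had 0 calls of 40 by edgeR and 1 by DESeq2 (3 up and 9 down at an unadjusted p under 0.05), and the autophagy and lysosome list had 0 of 41 by both tools (4 up and 3 down). In the unfolded protein response list the 1 call of 28 was HYOU1 (-0.19 ± 0.05), a chaperone of the endoplasmic reticulum. Of 29 heat shock genes 2 fell (6.9%), the chaperonin subunit CCT5 (-0.17 ± 0.04) and the co-chaperone CHORDC1 (-0.22 ± 0.05). In that list 25 fold changes were negative, with a median of -0.12, 12 were lower and 0 higher at an unadjusted p under 0.05, and DESeq2 called 8 down. Of the 8 metallothionein and zinc genes 5 were tested, with 0 calls by edgeR, 1 by DESeq2 and 2 at an unadjusted p under 0.05, and 3 had no count in the 6 libraries.

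Noncoding RNAs supplied a few rises. Of 19 noncoding snoRNA host genes 2 rose, SNHG12 (0.55 ± 0.12) and EPB41L4A-AS1 (0.48 ± 0.12), and the median was 0.25. The 2 are 10.5% of the list, against 1.04% of all genes called up. Many such transcripts are known targets of nonsense-mediated decay. NEAT1, the scaffold of nuclear paraspeckles, went from 99.7, 105 and 110 to 128, 128 and 133 CPM (0.31 ± 0.07, adjusted p = 0.0204). RNA came from a detergent lysate cleared by centrifugation, and recovery of nuclear RNA was not tested. The oncogene-neighbouring noncoding RNA PVT1 rose by 0.47 ± 0.12.

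The called genes of the highest level were mostly falls. NPM1, PTMA (-0.25 ± 0.04), SCD, HNRNPC, NONO (-0.25 ± 0.05) and HDGF (-0.18 ± 0.05) led them, with single libraries between 679 and 2530 CPM. PTMA, which encodes the nuclear acidic protein prothymosin, also has processed copies. Those that rose at high level were the glutathione peroxidase gene GPX1, MDM2, SLC25A36, NEAT1, TNFRSF10B and the inositol synthesis gene ISYNA1. GPX1 went from 198, 205 and 203 to 289, 292 and 229 CPM (0.42 ± 0.07), with induced replicate 3 between the others and the uninduced group. The mitochondrial nucleotide carrier gene SLC25A36 rose by 0.22 ± 0.04 and ISYNA1 by 0.26 ± 0.06. The HEK293 markers KRT8, a keratin (0.57 ± 0.14), and TUBB3, a neuronal tubulin (0.38 ± 0.10), were called up by edgeR. They are 15.4% of the 13 markers, against 1.04% of all genes called up. The other 11 markers were not called by edgeR, and DESeq2 called 1 marker down.

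The poly-adenylate line, treated in the same way, shares no library with the ChFP line. It had 125 genes called up (0.815%) and 42 down (0.274%), together 1.09%. Of the 159 rises of the ChFP line 4 were called up there (ZNF581, CHPF2, ZCCHC12 and ESPNL, named for this overlap) and 2 down (SESN2 and NEAT1). The 4 are 2.52% of the ChFP rises and 3.2% of the poly-adenylate rises, and 126 of 159 had a positive fold change with a median of 0.13 against 0.57. Of the 154 falls 1 was called down there (HOXA4), and 110 were negative, with a median of -0.06. The shares of all genes with a positive or negative fold change there were not counted. Uninduced replicates 2 and 3 of this line were in the set of 8 and its other libraries in the set of 10. The sets thus run with the induction state in both lines, and a shared direction cannot be told apart from them. The p53 targets had a median of 0.11 in the poly-adenylate line with 0 called up and 1 down (SESN2), and CDKN1A had a fold change of 0.47 (adjusted p = 0.406). G2/M genes had a median of -0.06 there with 0 calls (edgeR).

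The difference between the 2 responses was tested directly, and 3 genes passed (0.0196% of those tested), while 1721 had an unadjusted p under 0.05 and DESeq2 called 106. The median standard error of the difference was 0.12 log2, and differences of several standard errors did not pass: CCND1 had -0.29 ± 0.06 (adjusted p = 0.131) and CCNB1 -0.24 ± 0.05 (adjusted p = 0.142). For CDKN1A the ChFP response was higher by 0.81 (adjusted p = 0.479), and for SPATA18 by 1.45 (adjusted p = 0.0916). The 3 that passed were higher in the ChFP response. SESN2 went from 61.5, 64.5 and 57.9 to 84.8, 87.1 and 87.1 CPM in ChFP cells, but from 120, 88.8 and 88.0 to 80.4, 73.6 and 73.4 CPM in poly-adenylate cells, a difference of 0.88 log2 (adjusted p = 0.00946). NEAT1 rose in ChFP cells and went from 165, 133 and 140 to 116, 122 and 123 CPM in poly-adenylate cells (difference 0.58, adjusted p = 0.0116). DDR2, a collagen receptor kinase gene, was not called in ChFP cells (0.13 ± 0.06) and fell by 0.47 in poly-adenylate cells (difference 0.60, adjusted p = 0.00822).

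The 102xPR line, whose reporter encodes a proline-arginine repeat, responded far more broadly, with 34% of genes called up and 33.4% down. Its response differed from that of the ChFP line for 8971 genes (58.5%), with the ChFP response higher in 30.1% and lower in 28.5% of genes tested. The p53 list had 23 calls up and 3 down there (median 0.63), and its difference from the ChFP response was called for 16 of 32 members, 6 higher in ChFP cells and 10 lower. CDKN1A rose by 1.21 in the 102xPR line, and the difference of 0.07 ± 0.38 was not called (adjusted p = 0.881). G2/M genes moved otherwise: 43 were called up and 11 down in the 102xPR line (median 0.25), and the difference was called for 48 of 63, 45 of them lower in the ChFP response. BUB1 fell by 0.24 in ChFP cells and rose by 0.55 in 102xPR cells, a difference of -0.79 (adjusted p = 1.03e-09). AURKA and PRC1 differed by -0.61 and -0.90.

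Cholesterol genes fell more widely in the 102xPR line, where 26 of 28 were called down (median -0.76), beside 33.4% of all genes tested. The difference was called for 26 of 28, beside 58.5% of all genes tested. All 26 were higher in the ChFP response, and SQLE differed by 0.44. LIF rose in both lines, by 1.23 less in ChFP cells (adjusted p = 0.00114). APLN, the apelin peptide hormone gene, rose in ChFP cells (0.74 ± 0.17) and fell by 1.64 in 102xPR cells, a difference of 2.37 (adjusted p = 6.28e-08).

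**Figure D4:**
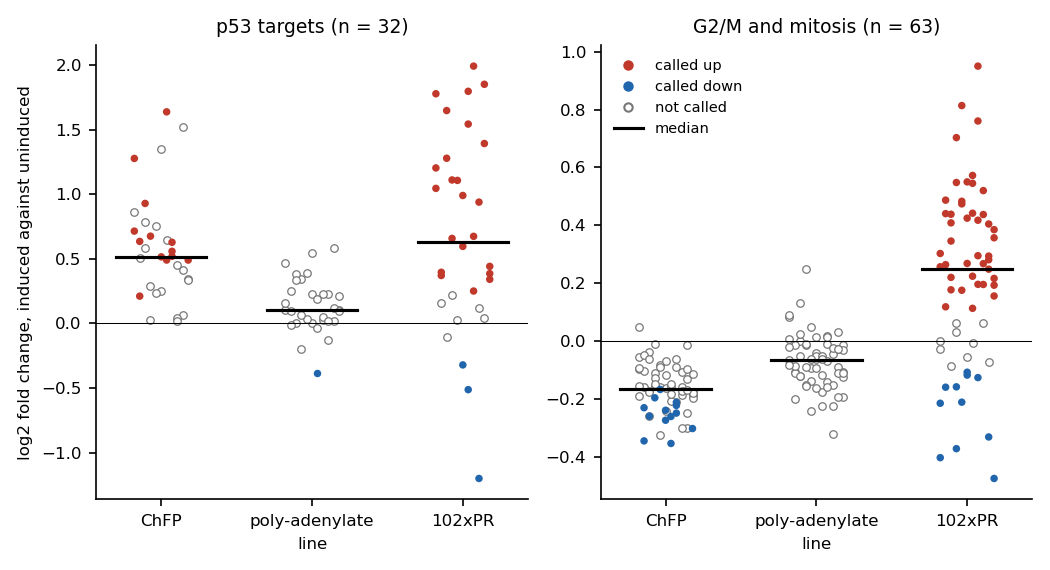
Points are the log2 fold changes, induced against uninduced, of the 32 p53 targets (left) and the 63 G2/M genes (right) in each line, filled where called, with the median as a bar. The p53 medians are 0.52, 0.11 and 0.63 in the ChFP, poly-adenylate and 102xPR lines, and the G2/M medians are -0.17, -0.06 and 0.25.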

How the data were processed

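The authors deposited whole-number counts per gene for 18 libraries of poly(A) RNA, read as single ends. The submitters' processing notes name HISAT2 2.1.0 and build hg38, cutadapt 3.4, featureCounts, bcl2fastq 2.20.0.422, and DESeq2 1.30.1. Strand setting and annotation: not given in the sources used here. Rows with no symbol (550, 0.041% of counts) were left out, and the deposited comparison tables of the other lines were not used. 

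Genes passing edgeR's filterByExpr (minimum count 10) were scaled by TMM and fitted with edgeR 4.0.16 (R 4.3.3), quasi-likelihood with robust dispersion, over all 18 libraries with 1 term per group; limma 3.58.1 was loaded with it. P-values were adjusted by Benjamini-Hochberg (threshold 0.05). CPM values use TMM library sizes. DESeq2 1.42.0, other scalings and filters, a replicate block, the library set as a covariate and leaving out libraries were alternatives. The calling steps were also run on simulated counts. These had the same spread for all genes and no effect of library set or replicate number, so they say nothing of such effects.

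The members and the 40 gene lists were chosen with earlier results of these data known. Genes were named by a rule: the 12 largest changes each way (called, mean log2 CPM of at least 1, no overlap), the 6 called genes of highest level each way, up to 6 called members of each list, any member of the p53, metallothionein and mitochondrial mRNA lists, the 6 largest differences between lines each way, and for promoters 4 called members with a CHR. HOXB9, HOXD10, HOXD11, HOXD13, CDK1 and the genes said above to be chosen later fall outside it, and some named genes are not reported here. Coordinates are from RefSeq (GRCh38.p14), and promoter windows matched 27305 genes.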

Additional observations from a re-analysis of the deposited data

Results flagged for a closer look

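Differences of response between lines met the criterion for a closer look, each tested as an interaction with edgeR's quasi-likelihood test (adjusted p under 0.05). Against the poly-adenylate line 3 genes were called, all higher in the ChFP response: SESN2 by 0.88 log2, DDR2 by 0.60 and NEAT1 by 0.58. SESN2 stayed called in 21 of 21 alternatives (0.72 to 0.96) and DDR2 in 20 of 20 (0.53 to 0.66). NEAT1 stayed called in 20 of 21 and ended without uninduced ChFP replicate 1 (adjusted p = 0.0725). In the poly-adenylate line uninduced replicates 2 and 3 were in the set of 8 and the other 4 libraries in the set of 10, so the library sets run in both lines with the induction state; all 3 differences stayed called with the set as a covariate.

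Against the 102xPR line the responses of 8971 genes differed, or 58.5% of those tested. Among them were 48 of 63 G2/M genes, 26 of 28 cholesterol genes and 16 of 32 p53 targets. The p53 count lies under the share of all genes. The differences named were BUB1 (-0.79 log2), AURKA (-0.61), PRC1 (-0.90), LIF (-1.23), SQLE (0.44) and APLN (2.37), and each stayed called in 21 of 21 alternatives.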

How the results depend on the processing

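None of the 313 ChFP calls, nor of the 9 named differences between lines, changed direction in an alternative that measured it. For the 313 calls this says little, since nearly all had induced and uninduced ChFP libraries that did not overlap. With DESeq2 252 genes were called up and 338 down, 26 p53 targets up, 23 G2/M genes down and 106 genes differed from the poly-adenylate response. With library totals 53 were called down and 1 cholesterol gene. Without a filter 11 differed from the poly-adenylate response, and with the stricter filter 21 p53 targets were called. With only the 6 ChFP libraries 4 cholesterol genes were called. With the library set as a covariate 70 were called up and 86 down, with 8 G2/M genes and 7 p53 targets, and 241 differed from the poly-adenylate response. Within the set of 8, 3 were called up and 0 down, with 0 in each of the 3 lists. More than 1.5-fold changes numbered 73 up and 4 down. The cause of these shifts was not tested.

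Leaving out 1 ChFP library gave 14 to 724 genes up, 10 to 619 down, 4 to 24 p53 targets, 2 to 25 G2/M genes and 1 to 8 cholesterol genes. Leaving out 1 library of either line gave 2 to 8 genes differing from the poly-adenylate response and 8417 to 9023 from the 102xPR response. The difference in mitochondrial share was -1.43 to -0.237 percentage points.

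The replicate block gave 369 up and 374 down, 27 p53 targets, 23 G2/M genes and 49 genes differing from the poly-adenylate response. Same-numbered ChFP libraries correlated by 0.11, 0.02 and 0.00 in their deviations, so the numbers were not treated as a pairing, and not every library correlated best with its own number (poly-adenylate line 0.16, 0.03 and 0.14, 102xPR line 0.07, 0.02 and 0.00). With the block and the library set together 27 p53 targets were called and 949 genes differed from the poly-adenylate response.

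Few counts limit the precision of genes under 5 CPM.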
